A study of Drosophila melanogaster with 4 samples.

Results

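The shared HDAC3 peaks on the X chromosome were the peaks of the first-round rat antibody list on X that overlapped a peak of the first-round rabbit antibody list by at least 1 bp. They numbered 425 of the 910 rat peaks on X and 425 of the 2463 peaks shared on the arms X, 2L, 2R, 3L, 3R and 4, out of 2552 shared peaks in all. The members were therefore chosen by measured values, the peak calls of both first-round libraries, so their number, fold enrichment and width are given as a description without a test. HDAC3 occupancy was profiled by CUT&Tag, in which an antibody guides a transposase to cut and tag DNA near the bound protein, in nuclei from whole embryos collected 2-4 h after egg laying. The second round compared tub-GAL4/shRNA HDAC3 embryos, here shHDAC3, with embryos of the w1118 laboratory strain using the rat antibody, and the first round used w1118 embryos with the rat and the rabbit antibody. The driver called tub-GAL4 is a maternal GAL4 line, so the knockdown acts through the mother, and the shRNA lowers HDAC3 rather than deleting the gene. Each combination of round, genotype and antibody was 1 library of pooled embryos, so no result below has a replicate check, and the second-round w1118 list is the only repeat with the same genotype and antibody.

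HDAC3 is a histone deacetylase that acts with the corepressor SMRTER, and it is recruited to promoters and enhancers by transcription factors. The X chromosome of Drosophila carries its own regulation: females have a pair and males a single copy. In males the MSL complex, which contains the roX RNAs and binds at GA-rich entry sites, acetylates histone H4 along the X and raises its transcription. The number of X chromosomes is read early in the embryo by Sxl, the switch gene of sex determination, whose activation depends on X-linked transcription factors such as sisA, sc and run. The methods describe no sorting of embryos by sex, so embryos of both sexes went into each library, and occupancy per X chromosome and the number of X copies cannot be told apart. Early embryos also rely on Zelda, the pioneer factor of zygotic genome activation, and on proteins that bind GA repeats, such as GAGA factor and CLAMP.

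Stretches of 100 bases from X peaks show the kind of sequence that the counts further on turn on, runs of alternating GA or CA. They are read 5′ to 3′ on the plus strand of Drosophila genome release 6 (RefSeq copy, the coordinates of dm6), lie outside annotated exons, and have in capitals every run of 8 or more alternating bases of GA or CA on either strand. The first lines come from strong peaks upstream of btd, CG3097 and ben, the next from the peaks with the longest GA runs that could be shown outside exons and the longest CA runs, and the last from the strongest X peak of all, which had neither.
btd, chrX:9693947-9694046: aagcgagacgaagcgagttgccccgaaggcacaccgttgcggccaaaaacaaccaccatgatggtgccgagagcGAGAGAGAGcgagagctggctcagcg
CG3097, chrX:5770922-5771021: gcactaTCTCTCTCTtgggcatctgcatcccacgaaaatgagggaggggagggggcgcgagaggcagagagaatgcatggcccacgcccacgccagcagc
ben, chrX:13995045-13995144: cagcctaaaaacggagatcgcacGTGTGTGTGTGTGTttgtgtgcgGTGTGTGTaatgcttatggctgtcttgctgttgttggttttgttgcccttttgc
fne, chrX:12938235-12938334: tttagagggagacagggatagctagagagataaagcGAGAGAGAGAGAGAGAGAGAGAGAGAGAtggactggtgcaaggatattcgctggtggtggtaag
Pp1-13C, chrX:15356630-15356729: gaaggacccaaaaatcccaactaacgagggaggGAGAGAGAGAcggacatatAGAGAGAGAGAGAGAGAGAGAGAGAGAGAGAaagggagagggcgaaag
CG8034, chrX:19298494-19298593: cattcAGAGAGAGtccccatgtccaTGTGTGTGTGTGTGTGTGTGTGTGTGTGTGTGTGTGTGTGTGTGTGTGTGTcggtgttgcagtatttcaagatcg
nej, chrX:9675159-9675258: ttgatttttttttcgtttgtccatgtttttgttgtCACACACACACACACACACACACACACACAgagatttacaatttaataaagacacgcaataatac
unc-119, chrX:7293995-7294094: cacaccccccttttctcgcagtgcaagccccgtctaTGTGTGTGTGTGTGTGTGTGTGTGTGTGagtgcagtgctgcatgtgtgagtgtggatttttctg
CG14621, chrX:22433052-22433151: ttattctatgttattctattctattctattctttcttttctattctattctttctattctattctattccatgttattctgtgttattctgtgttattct
The lines of fne, CG8034 and unc-119 are upstream of a TSS of these genes, that of nej is intronic, and that of Pp1-13C lies in an intron of acj6. The GA run of the fne peak was 28 bases long and that of the Pp1-13C peak 31. The CA run of the CG8034 peak was 51 bases long, that of nej 30 and that of unc-119 28. The stretch near CG14621 instead repeated the unit tattc, which occurred 13 times in 100 bases.

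By number, HDAC3 sites on X were about as dense as on the autosomes. The X held 17.3% of these peaks (95% exact binomial interval 15.8 to 18.8%), with 17.6% of the arm length and 16.6% of the transcription start sites (TSSs). That was 10.9 shared peaks per 100 TSSs on X (exact Poisson interval 9.87 to 12.0) and 10.4 on the autosomal arms as a whole (9.91 to 10.8), a difference of 0.521 (−0.589 to 1.69). Among the 4 large autosomal arms the density ran between 9.44 on 2L and 11.1 on 3R, so X lay within them. Neighbouring shared peaks on X were a median of 25028 bp apart, and on the autosomal arms 24176 bp. Along X, cut into 5 stretches of equal length, the density lay between 8.85 in the fourth and 12.0 per 100 TSSs in the first, with overlapping intervals. All intervals here cover counting error over peaks only, since peaks of 1 library are not replicates.

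The lists that make up the shared set differed more than the set itself. The rat list held 23.3 peaks per 100 TSSs on X and 26.5 on the autosomal arms, where the large arms ran between 24.8 and 27.9. The rabbit list held 17.4 on X and 14.1 on the autosomal arms, where the large arms ran between 12.2 and 14.7. In step with this, 46.7% of the X rat peaks were shared and 39.1% of the autosomal ones, while 62.3% of the X rabbit peaks and 73.1% of the autosomal ones were shared. The X was thus outside the range of the large autosomal arms in each list, in opposite directions, with fewer rat peaks and more rabbit peaks. Whether the antibodies, the libraries or their depth account for it was not tested, and with 1 library per antibody they cannot be told apart. The lists give no read numbers, so depth is unknown.

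**Figure D1:**
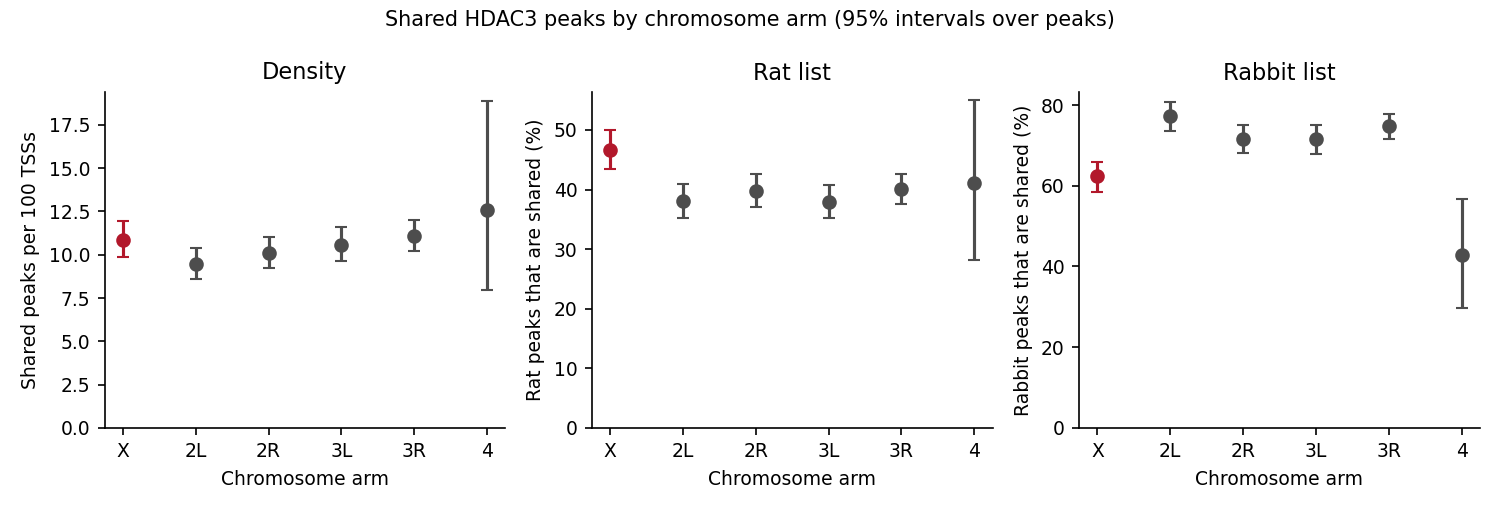
Shared peaks per 100 TSSs (left), percent of rat peaks that are shared (middle) and percent of rabbit peaks that are shared (right) on X (red) and each autosomal arm (grey), with 95% exact intervals over peaks. The density on X (10.9) sits within the large autosomal arms, its rat share (46.7%) lies above them and its rabbit share (62.3%) below them.

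In strength the X peaks could hardly be distinguished from the others. Their fold enrichment over the local background in the rat list had a median of 4.17 (order-statistic interval 4.09 to 4.35) on X and 4.16 (4.10 to 4.21) on the autosomal arms, a difference of 0.01 (−0.0869 to 0.203). The middle 50% of X peaks ran between 3.56 and 5.24, and 13.6% of them reached a fold of 6 or more, compared with 12.6% on the autosomal arms. In the rabbit list the medians of the same sites were 4.01 on X and 4.01 on the autosomal arms. Peak by peak, the rat fold was the larger in 218 of the 425 X peaks. The lists are different libraries of unknown depth, so their folds share no common scale and this count does not rank the antibodies. The median −log10 q in the rat list was 4.07 on X and 4.51 on the autosomal arms, below the large arms (4.26 to 4.81), and the median width was 559 bp on X and 577 bp on the autosomal arms.

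**Figure D2:**
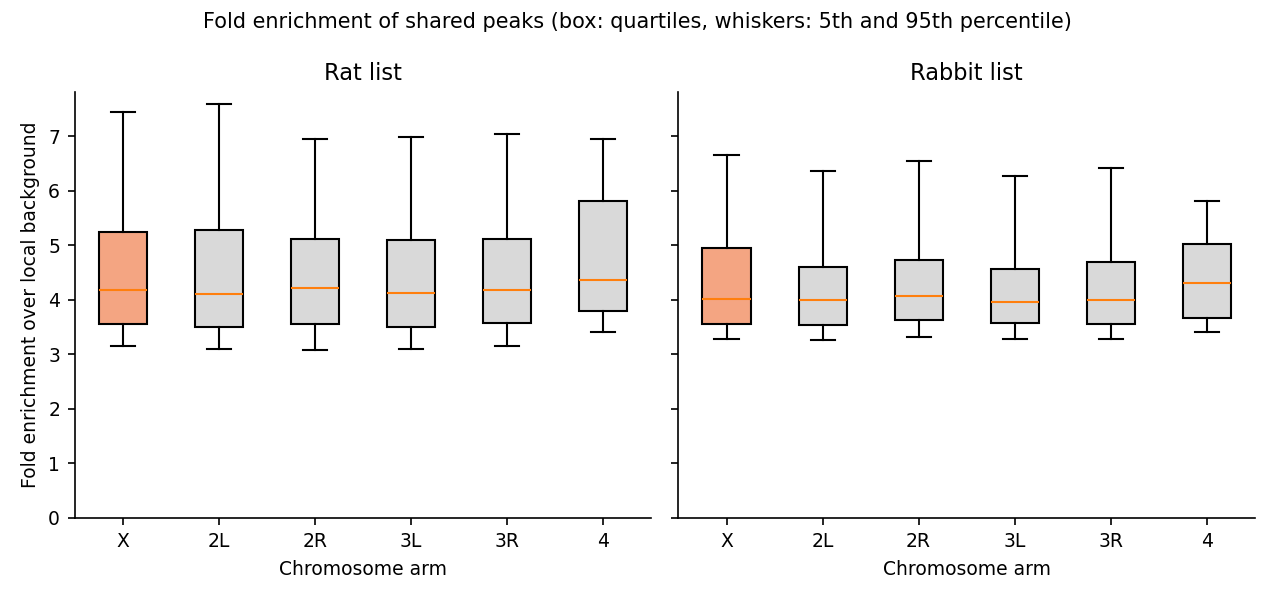
Fold enrichment over local background of shared peaks in the rat list (left) and of the rabbit peak at the same site (right), by chromosome arm, with X at the left. Boxes span the quartiles with the median as a line and whiskers the 5th and 95th percentiles. The X medians (4.17 rat, 4.01 rabbit) lie among those of the large autosomal arms.

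Most X peaks lay at gene starts. A peak covered a TSS in 54.8% of the X peaks and 57.5% of the autosomal ones, a difference of −2.63 percentage points (−7.96 to 2.64), and lay within 500 bp of one in 71.5% of the X peaks and 73.7% of the autosomal ones. Both X shares were just below the large arms, which ran between 56.2 and 60.7% for covering a TSS and between 71.6 and 77.0% for 500 bp. With a promoter taken as 3000 bp on either side of a TSS, 84.9% of the X peaks and 85.7% of the autosomal peaks were in promoters. Outside promoters, 38 X peaks lay in introns (8.94%, compared with 163 of 2038 on the autosomal arms), 10 in exons (2.35%, compared with 1.62%) and 16 in intergenic sequence (3.76%, compared with 4.66%). The 64 X peaks beyond 3000 bp of a TSS had a median rat fold of 4.61 (4.07 to 5.24), and the 233 that covered a TSS had one of 4.15 (4.02 to 4.33). The autosomal arms gave 4.55 and 4.15. The centre of the peak lay within 250 bp of the nearest TSS in 46.6% of the X peaks and 49.0% of the autosomal peaks, and upstream of it in 40.7% and 44.1%.

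**Figure D3:**
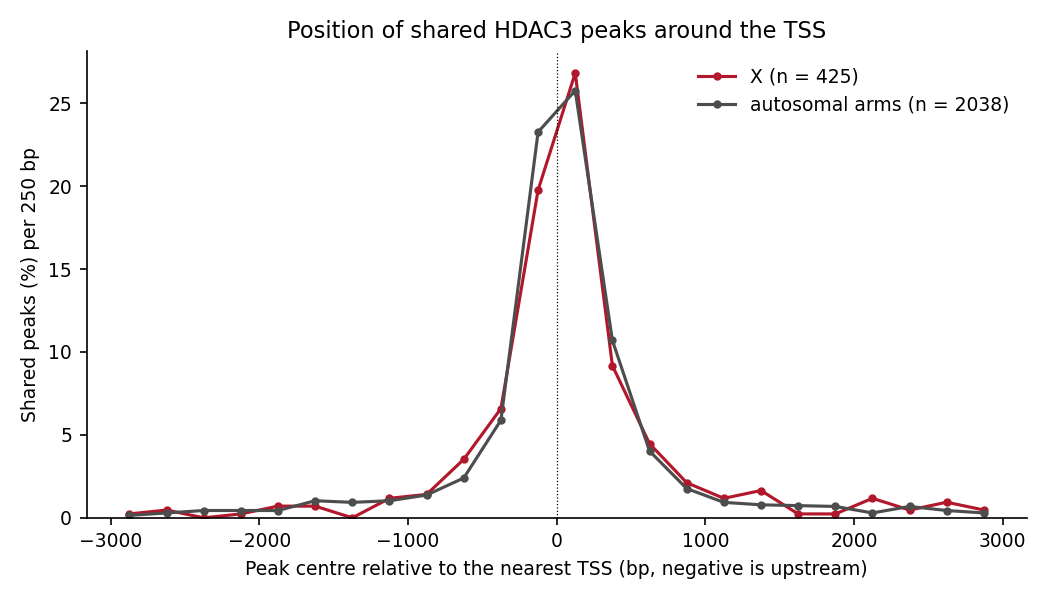
Percent of shared peaks per 250 bp by the position of the peak centre relative to the nearest TSS (bp, negative is upstream), for X (red, n = 425) and the autosomal arms (grey, n = 2038). Both curves are highest in the first 250 bp downstream of the TSS (26.8% of X peaks, 25.8% of autosomal peaks), and 16.2% of X and 15.2% of autosomal centres lie beyond 3000 bp.

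Shared peaks fell on 351 of 2813 annotated X genes (12.5%). A peak was given to the gene of the nearest TSS if that TSS lay within 3000 bp or that gene's body held the peak. Other peaks were given to no gene, such as the one in an intron of acj6 whose nearest TSS was that of Pp1-13C. On the autosomal arms 10.8% of genes had a shared peak, and the large arms ran between 10.0% on 2L and 11.2% on 3R. The difference of 1.67 percentage points (0.370 to 3.04) went down to 0.184 when every gene with a TSS within 500 bp of a shared peak was counted (15.1% on X and 14.9% on the autosomal arms). It was 1.64 (0.0409 to 3.29) when genes with a peak over the body or within 1000 bp of a TSS were counted. Its interval included 0 for peaks with −log10 q of 3 or more in both lists (0.804, −0.0463 to 1.74) and with the second-round list in place of the first-round rat list (0.742, −0.0294 to 1.60). Among protein-coding X genes, 318 of 2196 (14.5%) had a shared peak by the first rule, 17.2% had one within 500 bp of a TSS, and 22.2% had one over the gene body or within 1000 bp of a TSS. On the autosomal arms 12.4% of protein-coding genes had one by the first rule. Protein-coding genes made up 90.6% of the occupied X genes, next to 23 noncoding RNA genes, 6 pseudogenes, 2 snoRNA genes, 1 snRNA gene and 1 tRNA gene. They were 2196 of all 2813 annotated X genes, and 88.1% of the occupied autosomal genes. A single peak was the rule, since 9.40% of the occupied X genes had 2 or more, beside 9.70% on the autosomal arms. The most peaks were at bi, with 4, and at NFAT and Hr4, with 3 each. The T-box factor gene bi, which patterns the wing and the optic lobe, had its strongest peak at 6.83-fold and its weakest at 3.52-fold.

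The strongest X peak spanned 22433010 to 22433195, 11032 bp from the TSS of CG14621 in intergenic sequence. It had a fold of 18.1 with rat and 20.3 with rabbit, with the same borders in both lists. No second-round peak, shHDAC3 or w1118, overlapped it, and 34.4% of its bases were repeat-masked with a GC content of 21.5%. The other 9 of the 10 strongest X peaks had GC contents of 43.4 to 60.3%. The next was at btd, the head gap gene that encodes an Sp-family zinc finger factor. Its peak, 14 bp upstream of the TSS at 9694186, had a fold of 12.0 with rat, 7.92 with rabbit and 3.95 in second-round w1118. CG3097 (10.2 rat, 5.51 rabbit) and CG43867 (9.33 rat, 3.60 rabbit) were not found in the second round. Bendless (ben), a ubiquitin-conjugating enzyme, had a peak of 9.44-fold with rat, 8.09-fold with rabbit and 5.65-fold in second-round w1118. Other genes among the strongest were spri, a Ras effector gene (8.87 rat, 5.79 rabbit, intron), the zinc finger gene mamo (8.44 rat, 5.12 rabbit, intron), disco (8.28 rat, 8.27 rabbit) and Ran, the GTPase of nuclear transport (8.27 rat, 4.84 rabbit). Of the 10 strongest peaks 7 were found in second-round w1118 and none in shHDAC3. The shares over all shared X peaks were 33.4% and 0.235%. At a rat fold of 6 or more, 58.6% were found in second-round w1118.

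Distal peaks were among the strongest: the mamo peak was 42435 bp from the nearest TSS and the spri peak 4154 bp. Completing the 5 strongest beyond 3000 bp were a site 17923 bp from the CG12684 TSS (7.93 rat, 4.00 rabbit) and an intron of sdk, a cell adhesion gene (7.86 rat, 4.58 rabbit). Of these 5, the spri, mamo and CG12684 peaks were found in second-round w1118, and the sdk and CG14621 peaks were not. Among all shared X peaks at a rat fold of 6 or more, 58.6% were found there. The widest X peak, 3075 bp, covered a TSS of lncRNA:CR45624. The next were at the kinase gene Tlk (2744 bp) and at Hmt4-20 (2490 bp), which encodes a histone H4 methyltransferase. All 3 wide peaks were modest in fold, at 3.17, 2.91 and 3.67 in the rat list. Each was found in second-round w1118, beside 33.4% of all shared X peaks. A wide peak meets an overlap of at least 1 bp more easily, and the part of width was not tested.

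At the limit of the selection, the smallest overlaps between a rat and a rabbit peak on X were 45 bp near CG13375, 55 bp near Muc12Ea and 56 bp near snoRNA:M, with rat folds of 3.25, 3.16 and 3.71. Just outside, rat peaks near CHOp24, mei-P26 and moody lay 38, 194 and 224 bp from the closest rabbit peak, with rat folds of 3.74, 3.43 and 2.80. The median overlap was 362 bp, and 4 X pairs overlapped by 100 bp or less.

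Genes of patterning and neural transcription factors had X peaks most often among 10 lists of X genes. The lists were drawn up with earlier results of these data known, so their counts describe the lists and are no independent evidence. Of 26 such genes, 16 (61.5%) had a shared peak, beside 14.5% of all protein-coding X genes, and 14 had one within 500 bp of a TSS, where the share of all was 17.2%. Their strongest peaks had a median rat fold of 6.33, beside 4.23 over all 351 occupied X genes. For disco, a zinc finger gene of head and leg development, the fold was 8.28 with rat, 8.27 with rabbit and 6.23 in second-round w1118. The TEAD factor gene sd, the transcription factor of the Hippo pathway, had 8.21 with rat, 7.29 with rabbit and 5.19 in second-round w1118. Both thus had strong peaks in all 3 w1118 lists. The homeobox gene unc-4 had 7.16 with rat and 3.79 with rabbit and no second-round peak. For brk, the repressor of Dpp target genes, the values were 7.07 with rat, 7.10 with rabbit and 4.60 in second-round w1118. The peak of bi had 6.83 with rat, 5.88 with rabbit and 5.23 in second-round w1118. The strongest was btd, described above, and the other occupied members were oc, ovo, ct, vnd, l(1)sc, disco-r, run, zld (listed as vfl), gt and Sp1. Of the 16 strongest peaks, 10 were found in second-round w1118, compared with 112 of 351 (31.9%) over all occupied X genes. Recovery went with fold on X, and 10 of the 16 genes had a rat fold of 6 or more, a range in which 58.6% of all shared X peaks were found again.

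Of 17 signalling genes on X, 9 (52.9%) had a shared peak, beside 14.5% of all protein-coding X genes. The JAK/STAT receptor gene dome had 7.57 with rat, 8.65 with rabbit and 3.80 in second-round w1118, and upd2, which encodes a ligand of that pathway, had 5.39 with rat, 4.77 with rabbit and 3.66 in second-round w1118. A Frizzled-family receptor gene, fz4, had 5.25 with rat and 3.52 with rabbit and no second-round peak. The JNK pathway kinase gene hep had 5.15 with rat, 4.54 with rabbit and 3.58 in second-round w1118. The phosphatase gene csw (4.92 rat, 3.32 rabbit) and the Notch receptor gene N (4.42 rat, 3.94 rabbit) were not found in the second round. Receptors, a ligand and intracellular components were therefore all among the occupied genes. Of the 9 genes, 5 had their strongest peak in second-round w1118, beside 31.9% over all occupied X genes.

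Chromatin and transcription cofactor genes had peaks in 10 of 19 cases (52.6%, beside 14.5% of all protein-coding X genes), and 3 of the 10 strongest peaks were found in second-round w1118 (30.0%, beside 31.9% over all occupied X genes). The highest fold was at nej, the gene of the acetyltransferase CBP, with 6.87 for rat and 6.43 for rabbit. This is the peak with the 30-base CA run shown above, and it was not found in the second round. A weaker nej peak, over a TSS, had 4.42 with rat, 4.68 with rabbit and 3.79 in second-round w1118. The adjacent Polycomb genes ph-d (6.31 rat, 6.76 rabbit, 4.14 second-round w1118) and ph-p (5.18 rat, 4.34 rabbit, 4.11 second-round w1118) each had a peak over a TSS. They encode closely related subunits of the same repressive complex. The gene of SMRTER, the HDAC3 corepressor (Smr), had 5.96 with rat and 5.56 with rabbit. The zeste gene z had 5.96 with rat and 5.27 with rabbit, and the histone methyltransferase gene trr 4.96 with rat and 5.55 with rabbit. The peaks of Smr, z and trr were not found in the second round.

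Beside the same 14.5%, adhesion, polarity and cell shape genes had peaks in 6 of 12 cases: Moe, the actin-membrane linker (6.17 rat, 3.51 rabbit), sqh, the myosin regulatory light chain (5.31 rat, 5.73 rabbit, 4.17 second-round w1118), the integrin gene mew (4.15 rat), sdt (4.10 rat), dlg1 (3.89 rat) and kirre (3.33 rat). In the cell cycle and growth list 4 of 8 did: wapl, which releases cohesin (4.44 rat), the Myc antagonist Mnt (4.07 rat), fzr, an activator of the anaphase promoting complex (3.80 rat), and CycD (3.21 rat). Hr4, a nuclear receptor of the ecdysone response, was 1 of 3 (6.29 rat, 5.77 rabbit, 4.24 second-round w1118). Of 11 neuronal excitability genes, 2 did, elav, the neuronal RNA-binding protein (4.49 rat), and amn (4.89 rat). None of 5 yolk and eggshell genes and none of 14 cytosolic ribosomal protein genes had a shared peak by this rule, while 1 ribosomal protein gene had one within 500 bp of a TSS and 4 (28.6%) had one over the body or within 1000 bp of a TSS, where the share of all protein-coding X genes was 22.2%. By the rule of 3, an approximation of 3 divided by the number of genes, a count of 0 of 14 allows a share of up to 21.4%. This limit, which is not the exact interval used elsewhere, covers counting error only. It lies above the 14.5% of all protein-coding X genes.

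For sex determination and dosage compensation, 3 of 8 genes on X had a shared peak, beside 12.5% of all X genes. Sxl had one over a TSS with 3.22 for rat, 4.01 for rabbit and 3.91 in second-round w1118. The pair-rule and sex signal gene run had 5.03 with rat, 5.75 with rabbit and 6.08 in second-round w1118, the highest second-round value of the listed genes named here except disco. The dosage compensation RNA gene roX1 had 4.03 with rat and 5.30 with rabbit and no second-round peak. A peak over the TSS of roX2 was given to the neighbouring gene nod, with 3.04 with rat and 3.33 with rabbit (this gene was singled out after its values were seen). Peaks at these genes were thus near or below the X median of 4.17 in the rat list except at run. Over all lists, 50 of 120 X genes had a shared peak, beside 12.5% of all and 14.5% of protein-coding X genes. The strongest peak of 25 of these 50 was found in second-round w1118, beside 31.9% over all 351 occupied X genes. Recovery went with fold, as given for the patterning genes.

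**Figure D4:**
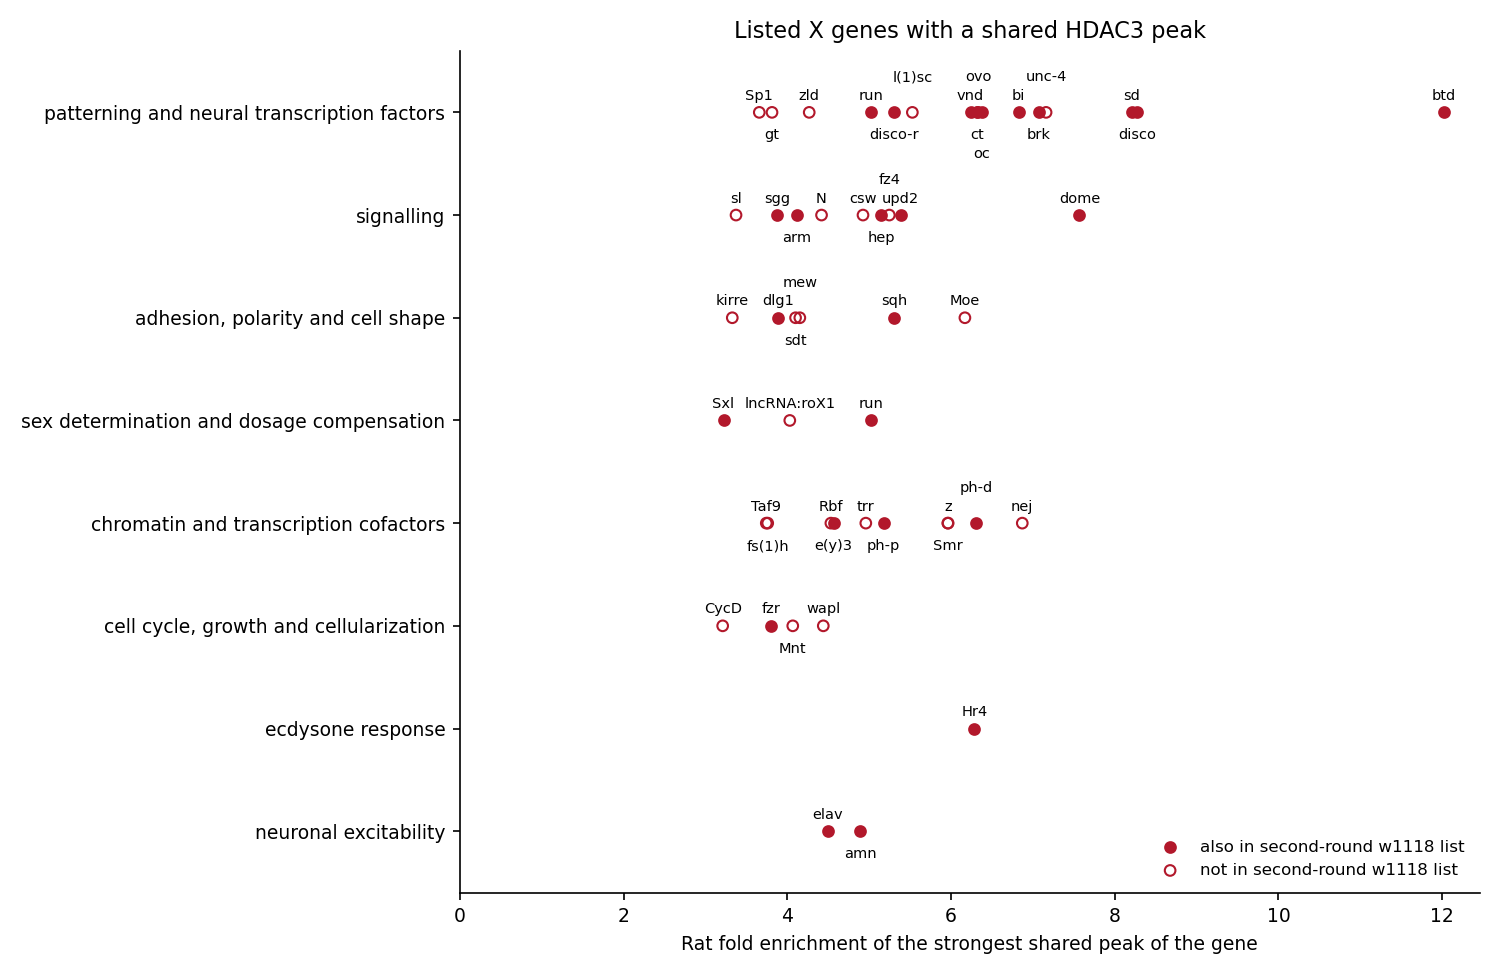
Rat fold enrichment (first-round w1118) of the strongest shared peak of each listed X gene that had one, by gene list. Filled points were also found in the second-round w1118 list and open points were not. Patterning genes reach the highest values (btd, 12.0), and none of the points was found in shHDAC3.

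In the second round, the shHDAC3 list held 2 X peaks among 102 in all, and the w1118 list 167 among 1142. Of the 425 shared X peaks, 1 (0.235%, 0.00596 to 1.30%) overlapped a shHDAC3 peak, beside 0.528% of the shared peaks of all arms, and 142 (33.4%, 28.9 to 38.1%) overlapped a second-round w1118 peak, beside 31.5%. The autosomal arms gave 0.589% (12 peaks) and 31.1%, so X did not stand apart in the w1118 share. With only 1 X peak found in shHDAC3, that share is too imprecise to compare. These shares count an overlap of at least 1 bp. At a reciprocal overlap of 50% the w1118 shares were 20.9% on X and 20.5% on the autosomal arms. The X peak found in shHDAC3 lay 1251 bp from the TSS of zyd, a sodium and calcium exchanger gene, close to the centromeric end of the arm. It had 3.21 with rat, 4.21 with rabbit, 4.44 in shHDAC3 and 3.90 in second-round w1118, and 87.5% of its bases were repeat-masked. The genotypes were represented by 1 library each, and depth or library quality cannot be told apart from the knockdown.

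How often an X peak was found again in second-round w1118 went with its strength: 19.2% of peaks under 3.5-fold in the rat list, 28.5% between 3.5 and 4.5, 39.3% between 4.5 and 6, and 58.6% of those at 6 or more. The autosomal arms gave 15.2, 27.4, 39.0 and 55.3%. Found X peaks had a median rat fold of 4.71 (4.43 to 5.15) and the others 4.03 (3.90 to 4.15). Looked at the other way, 83.2% of the 167 second-round X peaks lay at a shared peak (76.7 to 88.6%) and 71.4% of the 871 autosomal ones (68.3 to 74.4%), with the large arms between 67.6 and 73.9%. The same held against the rabbit list alone (83.8% on X and 71.9% on the autosomal arms), whereas 94.0% and 91.5% lay at a first-round rat peak. The higher share on X thus went with the rabbit list, which held more peaks per TSS there, and its part in the result was not tested further.

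Short CA and GA repeats were more frequent in the X peaks than in those of any large autosomal arm. The CA repeat CACACACA, searched on both strands, occurred in 50.6% of the shared X peaks (45.7 to 55.4%) and 35.5% of the autosomal ones (33.4 to 37.6%), a difference of 15.1 percentage points (9.76 to 20.3), and the large arms ran between 32.3% on 2L and 39.7% on 2R. On the same search, the GA repeat GAGAGAGA occurred in 26.6% on X (22.4 to 31.1%) and 18.6% on the autosomal arms (17.0 to 20.4%), a difference of 7.94 points (3.44 to 12.7), with the large arms between 16.4 and 21.8%. The X as a whole is richer in both. Of 600 bp tiles over the arms, 15.2% on X and 10.3% on the autosomal arms held the CA repeat, and 4.44% and 3.06% the GA repeat. In promoters, taken as 300 bp on either side of every TSS, the CA repeat was in 18.3% on X and 11.6% on the autosomal arms, and the GA repeat in 6.99% and 4.94%. Sequence of the width of each peak 2000 bp to either side held the CA repeat in 12.9% of cases on X, within the large arms (8.07 to 13.9%), and the GA repeat in 5.41% on X and 3.51% on the autosomal arms. For the CA repeat the ratio of X to autosomal share was 1.42 in peaks, 1.57 in promoters, 1.47 in tiles and 1.17 in these flanks. For the GA repeat it was 1.43 in peaks, 1.41 in promoters, 1.45 in tiles and 1.54 in the flanks.

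Within the X, both repeats were more frequent in the shared peaks than in their flanks. The 485 rat peaks on X with no rabbit peak held the CA repeat in 24.5% and the GA repeat in 12.6% of cases. Such peaks on the autosomal arms held them in 17.1% and 9.68%, also below the shared peaks there. X peaks with the GA repeat had a median rat fold of 4.66 (4.23 to 5.22), against 4.11 (4.01 to 4.24) without, and 49.6% of them were found in second-round w1118, against 27.6%. The autosomal arms gave a fold of 4.34 with and 4.11 without it, and 49.2% and 27.0% found in the second round. For the CA repeat the folds were 4.39 with and 4.09 without, and 41.4% and 25.2% were found in the second round, while on the autosomal arms the folds were 4.35 and 4.06 and the shares found 46.0% and 22.9%. Peaks with a repeat were also wider, with medians of 753 bp with and 502 bp without the GA repeat, and 709 bp with and 438.5 bp without the CA repeat, and wider sequence holds more matches. The part of width in these folds and shares was not tested. For the comparison of X with the autosomal arms, in the central 200 bp alone the CA repeat was in 22.4% of the X peaks and 13.3% of the autosomal ones, and the GA repeat in 9.65% and 6.53%. Long runs of 20 or more alternating bases were rare, GA in 3.06% of X and 1.42% of autosomal peaks and CA in 3.06% and 1.91%. Repeat-masked sequence made up a median of 16.6% of an X peak and 12.9% of an autosomal one, above the large arms (12.0 to 14.0%), while peaks masked over at least 50% of their length were equally rare (1.41% and 1.37%). How reads that map to several places were treated is not given in the sources used here, so its part was not tested.

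Other motifs differed by fewer percentage points. The Zelda motif CAGGTAG was in 8.94% of the X peaks (6.41 to 12.1%) and 12.8% of the autosomal ones (11.4 to 14.3%), below the large arms (12.1 to 13.6%), a ratio of 0.698. It was in 3.53% of X and 4.49% of autosomal flanks and in 2.97% of X and 3.32% of autosomal tiles, below the large arms in both, and in 3.43% of X and 3.52% of autosomal promoters, within them. In rat peaks with no rabbit peak the Zelda motif went the other way, with 12.2% on X and 11.1% on the autosomal arms. The DREF motif TATCGATA, found at housekeeping promoters, was in 8.47% of the X peaks and 6.38% of the autosomal ones, beside 11.2% and 7.20% of all promoters. Of the X peaks with it, 94.4% covered a TSS. The M1BP motif GGTCACAC was in 9.65% of the X peaks and 10.4% of the autosomal ones (promoters: X 7.53%, autosomal 6.72%). The GAGA factor core GAGAG, which the GA repeat contains, was in 69.6% of the X peaks and 66.8% of the autosomal ones (promoters: 51.5% each), and the E-box CAGCTG in 31.8% and 34.9% (promoters: X 28.8%, autosomal 28.1%). Intervals of the Zelda, DREF, M1BP, GAGAG and E-box shares in the peaks overlapped between X and the autosomal arms. Overlap does not show that the shares are equal, and intervals of the differences were not calculated for these motifs. In peaks found in second-round w1118, the Zelda motif was in 7.75% on X and 16.2% on the autosomal arms. In those not found it was in 9.54% and 11.3%. A match is a string of letters and does not show that the factor was bound.

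**Figure D5:**
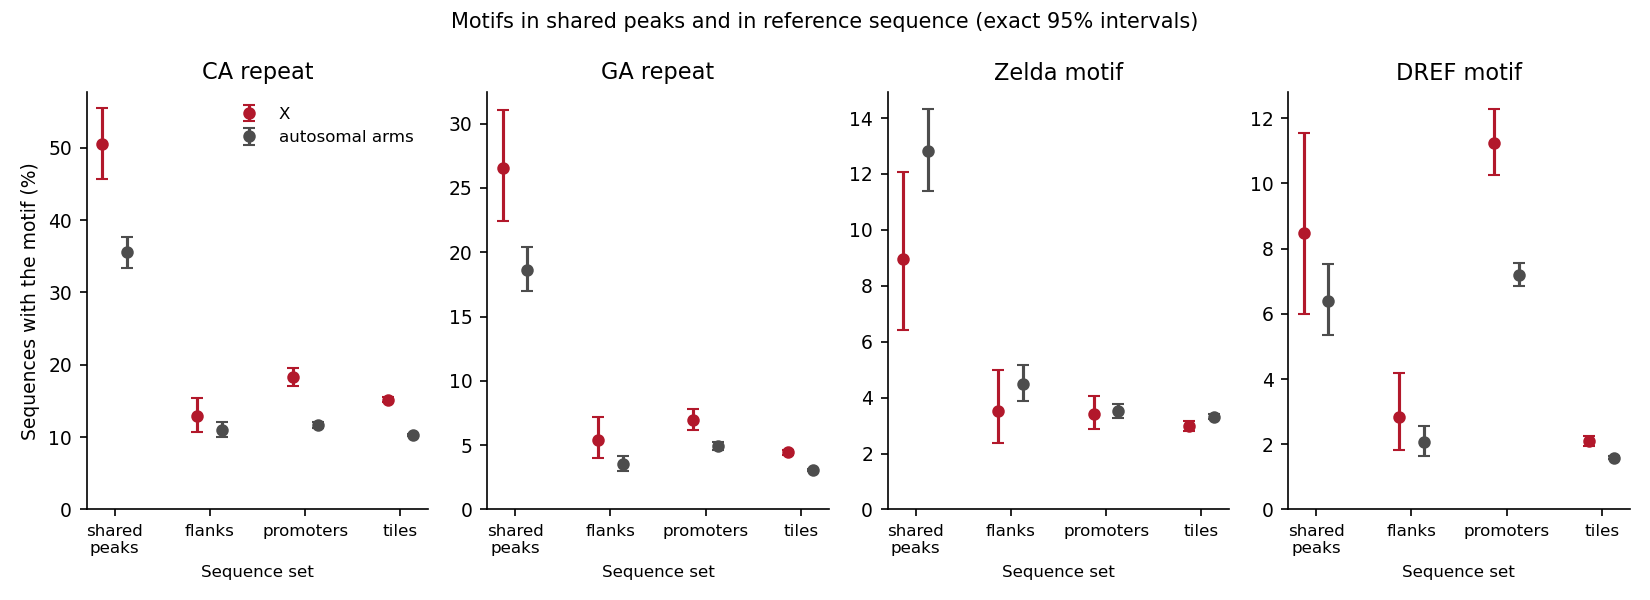
Percent of sequences with the CA repeat, the GA repeat, the Zelda motif and the DREF motif in shared peaks, flanks 2000 bp away, promoters and 600 bp tiles, for X (red) and the autosomal arms (grey), with 95% exact binomial intervals. The CA repeat is in 50.6% of X and 35.5% of autosomal peaks, and the reference sequence of X is also the richer (tiles 15.2% and 10.3%), while the Zelda motif is in 8.94% and 12.8% of the peaks.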

How the data were processed

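HDAC3 CUT&Tag was done on nuclei of pooled whole embryos, with 1 library per combination of round, genotype and antibody. The processing by the authors used Trim Galore for adaptors, Bowtie2 for mapping to dm6, MACS2 for peaks and ChIPseeker for annotation. Versions, peak calling options and any control library are not given in the sources used here. In the lists the authors deposited, the fold enrichment is a ratio over local background, p and q are −log10 values, and the score is a whole number that was not used. The lowest deposited −log10 q was 1.60 in both first-round lists, so weaker peaks had been left out. Depth is unknown.

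Peaks of the first-round lists were joined at an overlap of at least 1 bp, without pooling, and the second-round lists were used only to look for members. Gene models were Ensembl release 115 without transposable elements (18164 genes and 23584 TSSs on the arms), and sequence was the RefSeq copy of the same assembly. All X peaks and genes ended within the 23542271 bp of its X, which has the coordinates of dm6. Intervals are 95% exact binomial, exact Poisson or order-statistic intervals over peaks, and those of differences combine the intervals of both sides by the square-and-add method. X was compared with the autosomal arms together and with the range of the 4 large ones, with no test, because each list is 1 library. Python 3.11.15, numpy 2.4.6, pandas 2.3.3, scipy 1.17.1 and matplotlib 3.10.9 were used, and the functions were tested on simulated data. Genes named were the 10 strongest X peaks, the 5 strongest beyond 3000 bp, all found in shHDAC3, the 3 widest, the 3 genes with most peaks, the 3 longest runs of each repeat, 3 pairs on either side of the limit, and up to 6 members of each list. An item among them is not reported here. Members and lists were chosen with earlier results of these data known. Of 121 listed symbols 5 were matched by RefSeq synonym, and os, which points to more than 1 gene, was left out. The alternatives were another overlap, stricter lists, other windows and gene models, regions left out, the rabbit peak and the second-round list.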

Additional observations from a re-analysis of the deposited data

How the results depend on the processing

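Of 72 alternative values for the comparison of X with the autosomal arms, 68 stayed within the interval of the reported value, 4 moved outside it and none reversed a called difference. With the second-round w1118 rat list in place of the first-round one, the share of peaks that covered a TSS was 35.0% on X and 43.3% on the autosomal arms (140 and 626 peaks), a difference of −8.29 percentage points (−17.1 to 1.08) in place of −2.63. The cause was not tested. The excess of X genes with a shared peak fell to 0.184 points when every gene with a TSS within 500 bp was counted. At a reciprocal overlap of 50%, the share found in second-round w1118 fell to 20.9% on X and 20.5% on the autosomal arms. Only the difference between X and the autosomal arms, 0.431 points there, was held against the interval. In the central 200 bp of the peaks, where less sequence was searched, the excess was 9.01 points for the CA repeat and 3.12 points for the GA repeat. The CA shares there were 22.4% on X and 13.3% on the autosomal arms, and the GA shares 9.65% and 6.53%. The part of the searched length in the smaller excess was not tested. In 6 values the sign of a difference near 0 changed, in 4 settings for the width, for the median fold without the 5 Mb nearest the centromeres (−0.01) and for the promoter share with the second-round list (0.739). The CA repeat excess lay between 13.1 and 17.4 points in the alternatives on whole peaks, and the GA repeat excess between 5.32 and 9.57 points. For the GA repeat the interval of the difference included 0 with −log10 q of 3 or more in both lists (6.28, −1.45 to 14.5) and with the second-round list (5.32, −2.86 to 14.2). No paired analysis was possible because no comparison is between groups that share 2 replicate numbers and no result comes from a test over libraries. With 1 library per list, the intervals leave out the spread between libraries, and unknown depth limits any statement on peaks that were not called.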
